A study of Mus musculus with 6 samples.

Results

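Neuronatin (Nnat) and 9 further imprinted genes with roles in growth, H19, Igf2, Igf2r, Meg3, Peg3, Cdkn1c, Mest, Plagl1 and Gnas, were followed in the RNA of muscle labelled quadriceps from mice without estrogen receptor alpha in muscle. The 10 genes were picked by symbol out of the 37477 Ensembl genes in the deposited table, and each matched 1 gene. Nnat was chosen because its counts were higher in the knockout, so its level is given as a description with no test. The other 9 are imprinted growth genes set beside it. The samples were 3 libraries of muscle-specific estrogen receptor alpha -/- mice (called KO here) and 3 of wild-type mice (WT), all C57BL/6 and aged 20 weeks. The labels name neither the driver of the deletion nor the deleted exons. They do not state that the libraries of a group are separate animals, and p-values therefore reflect differences among libraries that may be technical. All mice are of 1 strain, so the counts do not tell the maternal from the paternal allele.

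An imprinted gene is transcribed mainly from the allele of 1 parent, because the other allele carries DNA methylation or repressive chromatin set down in the egg or sperm. Several such genes act on growth before and after birth: Igf2 encodes a growth factor read from the paternal allele, and Igf2r, read from the maternal allele in mice, encodes the receptor that takes IGF2 into the cell for breakdown. In muscle, H19 RNA is abundant before birth and stays on in the adult fibre, and many imprinted growth genes are much higher in fetal than in adult tissue. Nnat encodes a small membrane protein of the endoplasmic reticulum that is known from brain, pituitary, pancreatic islets and fat, and that acts on calcium handling.

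Nnat (ENSMUSG00000067786) occupies chromosome 2, plus strand, positions 157560078 to 157562522 of mm10, inside an intron of Blcap, which is transcribed from the minus strand. Its promoter is shown because Nnat is the gene with the highest KO to WT ratio among the 10, and because the deleted receptor is a DNA-binding factor. The window is from RefSeq on GRCm38.p6 (chr2:157559828-157560127, plus strand), from 250 bases before to 50 bases after the gene's start, and capitals mark each CpG, the dinucleotide that is methylated on a silenced allele.
Nnat promoter: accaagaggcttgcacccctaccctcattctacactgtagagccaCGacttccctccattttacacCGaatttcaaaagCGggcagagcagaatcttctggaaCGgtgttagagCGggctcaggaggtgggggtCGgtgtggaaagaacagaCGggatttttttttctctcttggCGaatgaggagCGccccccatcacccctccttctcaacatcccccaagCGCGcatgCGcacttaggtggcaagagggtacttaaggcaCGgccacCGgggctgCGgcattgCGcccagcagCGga
It holds 17 CpGs, more than 68.6% of the 32851 promoter windows of the same length. RefSeq windows were matched for 8 of the 10 genes, 17 windows in all since Igf2, Gnas, Mest and Meg3 have several starts, some of them a few bases apart so that their windows overlap. Of these 17, 14 held more CpGs than the median window, which has 7. The full estrogen response element, GGTCA and TGACC with 3 bases of any kind between them, reads the same on both strands and was found in 0 of the 17 windows and in 0.0700% of all windows. A single arm, GGTCA or TGACC, which the full element also contains, was found in 7 of the 17 windows, of Igf2, Igf2r, Meg3 and Mest, against 40.5% of all windows, and the Nnat window holds none. The letters TGCCGC or GCGGCA, the sequence that the imprint-guarding zinc-finger protein ZFP57 binds when methylated, were found in 6 of the 17 windows, of Nnat, Igf2, Meg3, Mest and Plagl1, against 11.6% of all windows. In the Nnat window they stand at positions 278 to 283, counted from the 5′ end. The ZFP57 letters contain a CpG, and 14 of the 17 windows held more CpGs than the median. The share over all windows is therefore not a like background for these letters. The Mest windows among the 6 overlap, so their matches are not separate. All of these are matches of letters, not binding sites.

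The knocked-out gene was checked first. Esr1, which encodes estrogen receptor alpha, had 22, 16 and 16 counts in KO replicates 1, 2 and 3, against 50, 41 and 44 in WT replicates 1, 2 and 3, with a log2 difference of -1.45 ± 0.23 (SE) and an adjusted p of 0.145 in edgeR's quasi-likelihood test. All KO libraries were below all WT libraries, and over the alternatives the adjusted p ran from 0.000142 to 0.822. Total counts ran from 7809612 to 8560244 in KO and from 7388365 to 7733401 in WT. Myofibre markers were high in every library, with Ckm, the muscle creatine kinase, at 5390 ± 107 CPM (counts scaled to library size, per 1e+06) in KO and 5006 ± 196 CPM in WT (SD, n = 3 each). Apart from genotype, KO replicate 1 stood out with 9.53% of its counts on the mitochondrial genome, against 6.14% to 7.46% in the other libraries. Over the 13848 genes that passed the filter on low counts, edgeR's quasi-likelihood test called 0 genes higher and 0 lower at an adjusted p under 0.05, so the background is 0% in each direction. An unadjusted p under 0.05 was reached by 590 genes, 4.26% of those tested. DESeq2 called 3 genes and limma voom called 1.

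Nnat was higher in KO in every library. It had 72, 45 and 41 counts in KO replicates 1, 2 and 3, against 23, 24 and 30 in WT replicates 1, 2 and 3. Scaled for library size these were 8.52, 5.44 and 5.08 CPM in KO, against 3.08, 3.28 and 3.80 CPM in WT. No WT library reached the lowest KO library, KO replicate 1 was well above the other 2 KO libraries, and the WT libraries lay close together. The means were 6.34 ± 1.89 CPM in KO and 3.39 ± 0.373 CPM in WT (SD, n = 3 each), a ratio of 1.87, and the fitted log2 difference was 0.90. Over the genes tested, 20 had a larger rise in KO. The authors' deposited table gives Nnat a log2 fold change of 0.92. As this contrast is the one that chose Nnat, none of these values is support for a difference.

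The depth sets how finely Nnat can be read. The exact 95% Poisson intervals, which cover counting error only, ran from 56.3 to 90.7 counts for KO replicate 1, from 32.8 to 60.2 for KO replicate 2 and from 29.4 to 55.6 for KO replicate 3. In WT they ran from 14.6 to 34.5 for replicate 1, from 15.4 to 35.7 for replicate 2 and from 20.2 to 42.8 for replicate 3. The intervals of all 3 WT libraries thus overlap those of KO replicates 2 and 3, and none of them overlaps that of KO replicate 1. Without KO replicate 1 the log2 difference of Nnat was 0.63, the lowest of any library left out, and without KO replicate 3 it was 1.04, the highest.

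**Figure D1:**
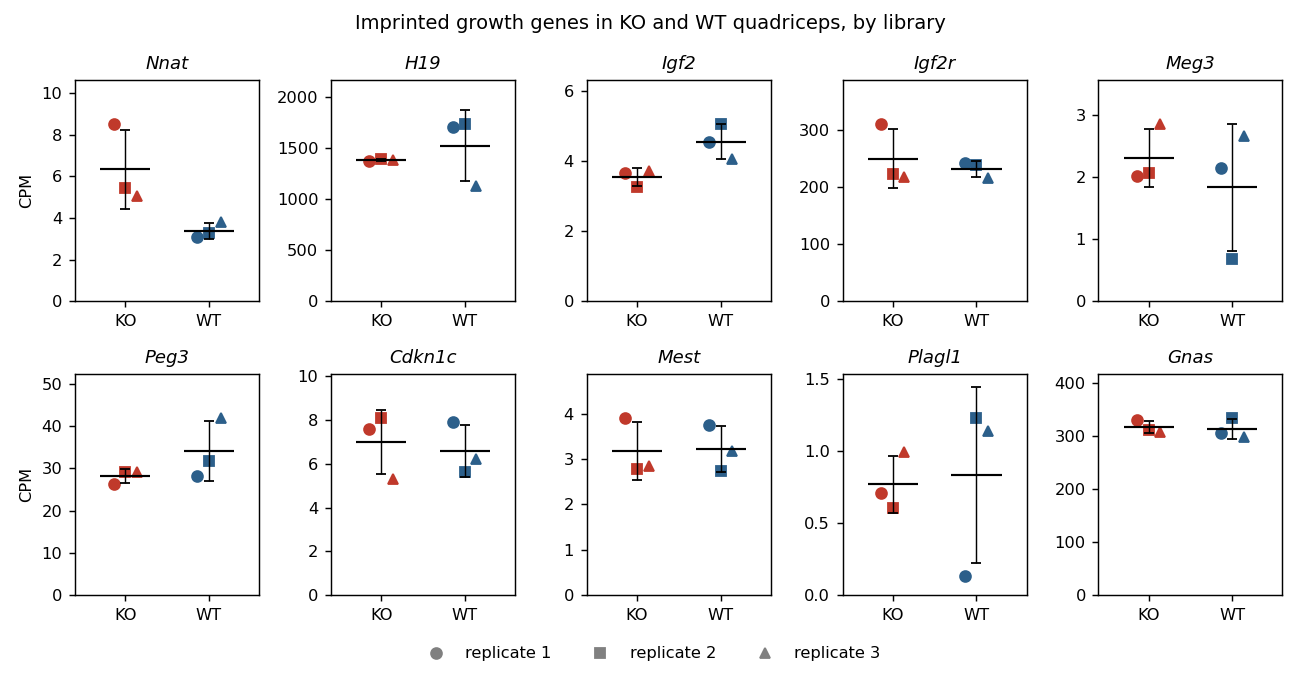
Each panel plots 1 of the 10 genes in CPM scaled by TMM, with 3 KO libraries left of 3 WT libraries, a horizontal bar for the mean and an error bar of 1 SD. Nnat is above all WT values in KO and Igf2 is below all WT values in KO, while the groups overlap for the other 8 genes.

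The gene that encloses Nnat did not share its pattern. Blcap, a small conserved protein first found as reduced in bladder cancer, is imprinted in brain. It had 124, 124 and 106 counts in KO replicates 1, 2 and 3, against 100, 100 and 117 in WT replicates 1, 2 and 3. In CPM the lowest KO library stood at 13.1, below all WT libraries at 13.4 to 14.8, and another KO library at 14.7 lay within them, so the groups overlapped, and its log2 difference had 95% bounds of -0.24 and 0.29. Nnat had 0.443 ± 0.119 times the counts of Blcap in KO and 0.242 ± 0.0133 times in WT (SD, n = 3 each). This ratio rests on the Nnat counts that chose Nnat, so it is a description and no support for a difference. No exon of Blcap overlaps an exon of Nnat. A predicted microRNA gene, Gm23134, shares 87 exonic bases with Nnat and had 13, 7 and 4 counts in KO and 5, 5 and 3 in WT. The labels do not say that strand was kept, so reads of Gm23134 cannot be told from reads of Nnat.

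Markers of other cell types were read beside Nnat, because in whole muscle a higher level per cell and more cells of an expressing type cannot be told apart. Among 9 adipocyte markers, 6 had higher and 3 had lower KO levels, and the median log2 difference was 0.29, against -0.002 over all genes tested, and 0 passed. Adipoq, the adipocyte hormone adiponectin, had 136, 133 and 102 counts in KO, against 75, 73 and 130 in WT, so the groups overlapped. Plin1, which coats the lipid droplet of adipocytes, had 86, 66 and 66 counts in KO, against 44, 54 and 57 in WT. Its groups did not overlap, as in 10.4% of all tested genes. The summed level of the adipocyte list was 1145 to 1981 CPM in KO and 1398 to 1671 CPM in WT, but Plin4, which muscle fibres also express, took 73.7% to 83.0% of it. Without Plin4 the sums were 296 to 336 CPM in KO and 273 to 357 CPM in WT.

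Markers of satellite cells, the stem cells of muscle, were read next. Pax7, which defines them, had 21, 11 and 16 counts in KO, against 8, 9 and 14 in WT. The groups overlapped, and KO replicate 1 was highest for Pax7 as it was for Nnat. Among the 8 tested markers of the list, 5 had higher and 3 had lower KO levels around a median of 0.10 (log2), and 0 passed. Vcam1 had the smallest unadjusted p of the 8 in edgeR's quasi-likelihood test. It stood at 4.87 ± 0.742 CPM in KO and 3.48 ± 0.711 CPM in WT (SD, n = 3 each), with overlapping groups. The groups did not overlap for 1 of the 8, where 10.4% of all tested genes had groups without overlap. This was Chrna1, a subunit of the acetylcholine receptor that muscle fibres also express. It stood at 23.7, 19.7 and 23.8 CPM in KO, against 25.2, 25.8 and 24.7 CPM in WT. The summed level of the list without Des, which is a muscle fibre gene, was 45.9 to 52.2 CPM in KO and 48.3 to 51.4 CPM in WT. Pax3 was at 0. Nerve and Schwann cell markers summed to 49.5 to 88.7 CPM in KO and 59.2 to 86.0 CPM in WT, and all 6 that were tested had log2 differences below 0, none of which passed. The neuronal genes Nefl, Nefm, Nefh and Snap25 had at most 3 counts in any library. Of 5 markers of pancreatic islets and pituitary, Ins1, Gh and Prl had 0 counts in all 6 libraries, where a count of 0 allows up to 3 counts. The share of any of these cell types in the Nnat values was not tested.

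**Figure D2:**
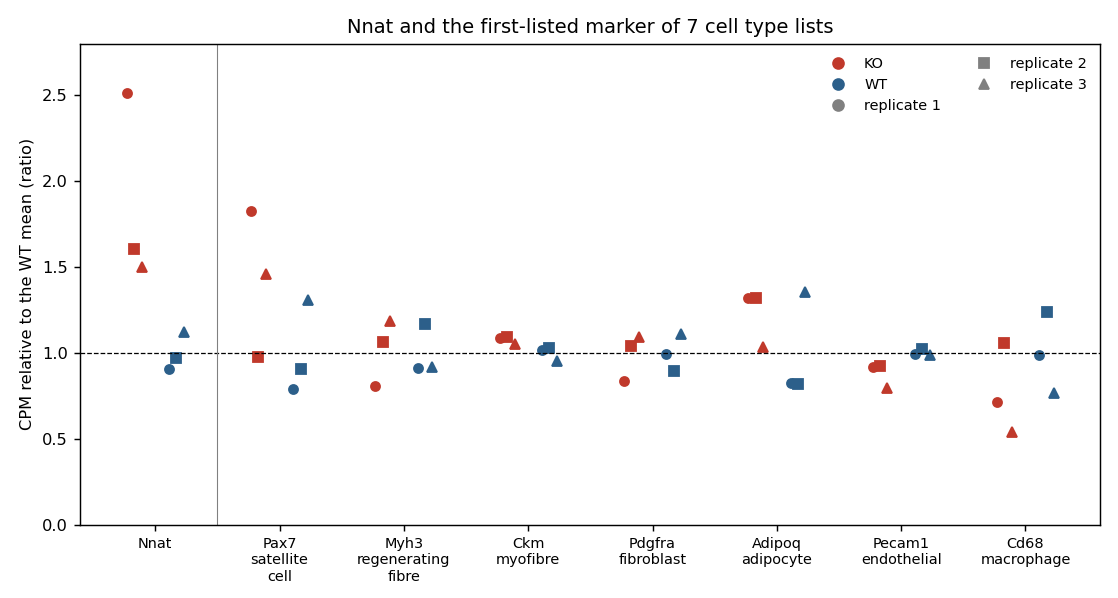
The vertical axis is CPM divided by the WT mean of the same gene, for Nnat and for the first-listed marker of 7 cell type lists, with KO points left of WT points and a symbol for each replicate number. Nnat in KO lies above all its WT values, while the groups of Pax7, Myh3, Pdgfra, Adipoq and Cd68 overlap, Ckm lies slightly above WT and Pecam1 slightly below; each point set is 1 gene and does not stand for its list.

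Fibroblast markers summed to 898 to 1031 CPM in KO and 809 to 1154 CPM in WT, and macrophage markers to 90.6 to 101 CPM in KO and 72.5 to 94.8 CPM in WT. Endothelial markers summed to 224 to 267 CPM in KO and 254 to 278 CPM in WT. Markers of developing and regenerating fibres, such as the embryonic and perinatal myosins Myh3 and Myh8, summed to 478 to 498 CPM in KO and 486 to 523 CPM in WT. In the sums of these 4 lists the groups overlapped, and no gene of them passed in edgeR's quasi-likelihood test. These 4 lists had 10 fibroblast, 7 macrophage, 6 endothelial and 6 developing fibre genes tested. Of these genes 3 had groups without overlap, where 10.4% of all tested genes did. Mrc1, a macrophage mannose receptor, stood above WT, at 28.1 ± 1.27 CPM in KO and 21.0 ± 5.30 CPM in WT (SD, n = 3 each), in a list with 4 higher and 3 lower members. Pecam1, of endothelial cells, stood below WT, at 80.2 ± 6.43 CPM in KO and 91.2 ± 1.69 CPM in WT, in a list with 1 higher and 5 lower members. Ncam1, an adhesion molecule of young fibres, also stood below WT, at 22.1 ± 1.42 CPM in KO and 25.8 ± 1.00 CPM in WT, in a list with 3 higher and 3 lower members. Their part in the Nnat values was not tested.

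The 10 myofibre markers split into 5 higher and 5 lower in KO, and 0 passed. Groups did not overlap for 2 of the 10 above WT and for 1 below. Of all tested genes, 4.96% lay above and 5.45% below in this way. In all KO libraries Ckm and the fast myosin Myh1 stood above WT. Myh1 was at 4329 ± 347 CPM in KO and 3363 ± 547 CPM in WT. The fast myosin Myh2 stood below WT in all KO libraries, at 9364 ± 329 CPM in KO and 10380 ± 102 CPM in WT. The slow myosin Myh7 was the most abundant myosin of the list, at 21018 ± 1186 CPM in KO and 21746 ± 2635 CPM in WT. The fast myosin Myh4 was the least abundant, at 491 ± 89.2 CPM in KO and 303 ± 126 CPM in WT (SD, n = 3 each). Myh7 and Myh4 overlapped between groups, and the make-up of fibre types was not tested.

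By a rule of likeness that used the 6 libraries alone, the genes nearest to Nnat were Aaas, Pppde2, Adc, Gm12404 and Gins2. The measure was the root mean square difference of log2 CPM after subtracting each gene's mean, with a prior count of 0.5, over genes of at least 1 CPM with a symbol. It was 0.16 for Aaas, which encodes a nuclear pore protein, and 0.20 for Gins2, a subunit of the replicative helicase complex. Aaas had 36, 23 and 21 counts in KO, against 15, 14 and 19 in WT. Like Nnat, all 5 are low-count genes with the highest value in KO replicate 1, which the rule fixes.

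The 8 other growth genes that could be tested did not pass in either direction. In edgeR's quasi-likelihood test 0 of the 8 were called, where 0% of all tested genes were called in each direction. An unadjusted p under 0.05 was reached by 0 of the 8, where 4.26% of all tested genes reached it. The lowest adjusted p of the 8 was 0.989. Plagl1 was below the filter on low counts. The KO level was higher for 4 of the 8 and lower for 4, with a median log2 difference of 0.00088, against -0.002 over all genes tested. The groups did not overlap for 1 of the 8, Igf2, where 10.4% of all tested genes had groups without overlap, 4.96% above and 5.45% below WT.

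Igf2, the growth factor, had 31, 27 and 30 counts in KO replicates 1, 2 and 3, against 34, 37 and 32 in WT replicates 1, 2 and 3. At 3.67, 3.26 and 3.71 CPM in KO, against 4.55, 5.06 and 4.06 CPM in WT, Igf2 was lower in each KO library than in any WT library. The log2 difference of -0.36 ± 0.22 (SE), with 95% bounds of -0.82 and 0.10, did not pass (adjusted p = 0.989, edgeR). Igf2 (ENSMUSG00000048583) occupies positions 142650766 to 142666816 of chromosome 7, minus strand. In GENCODE M21 64.5% of its exonic bases also belong to other annotated genes, chiefly the readthrough gene Gm49394.

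Igf2r, the receptor that clears IGF2, was far more abundant than its ligand. It had 2617, 1836 and 1751 counts in KO, against 1802, 1741 and 1701 in WT, which is 310, 222 and 217 CPM in KO, against 241, 238 and 216 CPM in WT. KO replicate 1 stood above all other libraries, and the remaining KO and WT values overlapped. The log2 difference of 0.11 ± 0.13 (SE, adjusted p = 0.993, edgeR) turned to -0.08 without KO replicate 1, the library with the highest mitochondrial share.

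Airn, the long antisense RNA that starts inside Igf2r and silences the paternal Igf2r allele in cis in the mouse embryo, was lower in KO without passing the test. It had 28, 37 and 41 counts in KO, against 59, 45 and 53 in WT, or 4.29 ± 0.896 CPM in KO and 6.93 ± 0.893 CPM in WT (SD, n = 3 each). Every KO library was below every WT library. Its log2 difference was -0.69 ± 0.21 (SE), with 95% bounds of -1.13 and -0.25. It did not pass over all genes in edgeR's quasi-likelihood test (unadjusted p = 0.00399, adjusted p = 0.989, and 0.460 to 1 over the alternatives). There were 93.5, 49.6 and 42.7 Igf2r counts for each Airn count in KO replicates 1, 2 and 3, against 30.5, 38.7 and 32.1 in WT replicates 1, 2 and 3. Airn crosses introns of Igf2r and shares 0 exonic bases with it, and as the labels do not say that strand was kept, unspliced Igf2r RNA counted as Airn cannot be told apart from Airn itself.

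Igf2r occupies positions 12682406 to 12769664 of chromosome 17, minus strand, and its promoter window holds 34 CpGs, more than 92.3% of all windows. Of the transporter genes next to Igf2r, Slc22a2 had 16, 7 and 11 counts in KO, against 8, 9 and 11 in WT, and Slc22a3 had 5, 2 and 7 counts in KO, against 2, 2 and 2 in WT. In CPM both overlapped between groups, and Slc22a3 was too low to be tested.

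Other genes of the IGF axis were read from a list of 22, of which 17 were tested and 0 passed in either direction. KO levels were higher for 8 of the 17 and lower for 9, around a median log2 difference of -0.01. Igf1r, the receptor through which IGF1 and IGF2 signal, had 90, 83 and 107 counts in KO, against 115, 98 and 106 in WT. At 11.3 ± 1.71 CPM in KO and 14.1 ± 1.15 CPM in WT (SD, n = 3 each), its KO values lay below its WT values once scaled for library size. Its log2 difference was -0.32 ± 0.14 (SE), which did not pass in edgeR's quasi-likelihood test (unadjusted p = 0.0412, adjusted p = 0.989). Insr, the insulin receptor, stood at 126 ± 13.4 CPM in KO and 144 ± 3.25 CPM in WT (SD, n = 3 each), with a log2 difference of -0.19 ± 0.08 (SE, adjusted p = 0.989, edgeR) and overlapping groups. Igf2bp3, an RNA-binding protein of the fetal Igf2 transcripts, had 14, 16 and 9 counts in KO, against 15, 23 and 17 in WT. Groups did not overlap for 1 of the 17 above WT, Igfbp7, and for 2 below, Igf1r and Igf2bp3. Of all tested genes, 4.96% lay above and 5.45% below in this way. Before adjustment, p was under 0.05 for 0 higher and 2 lower genes of the list, Igf1r and Insr, where 1.99% and 2.27% of all genes did so.

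H19 was by far the most abundant of the 10. This long noncoding RNA, read from the maternal allele, shares its enhancers and its imprinting control region with Igf2. It had 11588, 11549 and 11205 counts in KO replicates 1, 2 and 3, against 12794, 12713 and 8924 in WT replicates 1, 2 and 3. In CPM the KO libraries were nearly equal, at 1371, 1395 and 1387, while WT had 1714, 1738 and 1131, so the KO values lay between WT replicate 3 and the other 2 WT libraries. The log2 difference was -0.14 ± 0.16 (SE), with 95% bounds of -0.51 and 0.22, and did not pass (adjusted p = 0.993, edgeR). It was -0.32 without WT replicate 3 and -0.04 without WT replicate 2. H19 took 69.2% ± 2.39 (SD, n = 3) of the counts of the 10 genes in KO and 71.4% ± 4.42 in WT, and the 10 genes together took 0.201% ± 0.00447 of all counts in KO and 0.210% ± 0.0317 in WT (SD, n = 3 each).

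H19 (ENSMUSG00000000031) occupies positions 142575529 to 142578143 of chromosome 7, minus strand, and its first exon holds the hairpin that is cut into miR-675. Igf2 and Mest likewise hold a microRNA gene each within the gene body. Their mature forms are shown, from RefSeq on GRCm38.p6, because they are products of H19, Igf2 and Mest that the table lists as genes of their own. Capitals mark the seed, bases 2 to 8, and no 2 of these seeds are alike.
mmu-miR-675-5p: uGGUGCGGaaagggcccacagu
mmu-miR-675-3p: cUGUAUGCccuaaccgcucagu
mmu-miR-483-5p: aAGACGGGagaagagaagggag
mmu-miR-335-5p: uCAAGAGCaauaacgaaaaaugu
The genes Mir675, Mir483 and Mir335 had 0 counts in all 6 libraries of the table, where 0 allows up to 3 counts for each library. All 84 bases of Mir675 lie within an H19 exon and Mir675 was at 0 beside 8924 or more H19 counts, so reads over the hairpin were not assigned to Mir675. The labels do not say how such reads were counted, and mature microRNAs are too short for this kind of library.

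The ratio of H19 to Igf2 per exonic length was 870, 995 and 869 in KO replicates 1, 2 and 3, against 875, 799 and 649 in WT replicates 1, 2 and 3. The groups overlapped, since WT replicate 1 lay above the lower KO values. On the log2 scale the ratio was 9.83 ± 0.113 in KO and 9.59 ± 0.222 in WT (SD, n = 3 each), a difference of 0.24. An exact two-sided permutation test gave p = 0.3, where 3 against 3 libraries cannot go below 0.1.

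**Figure D3:**
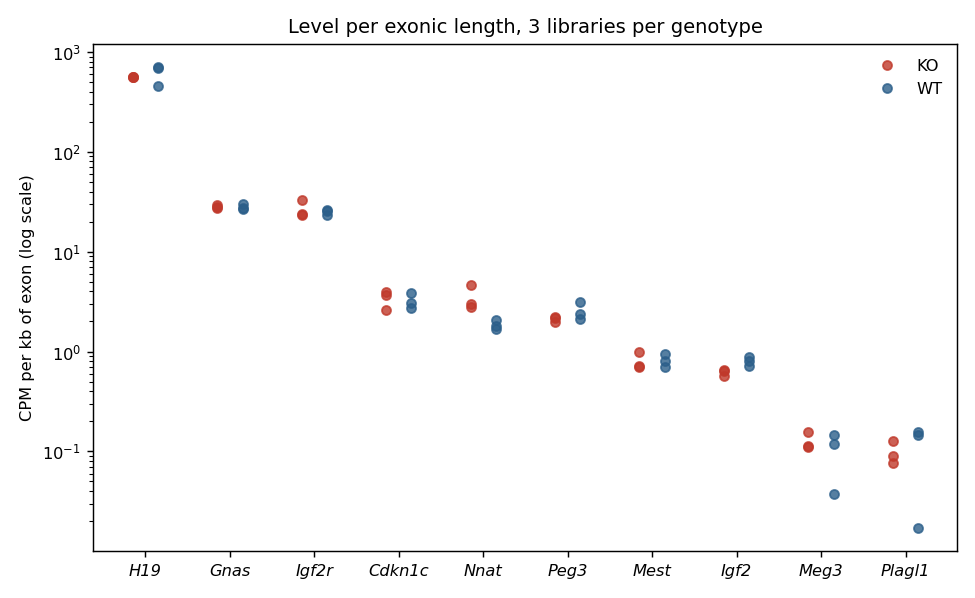
The vertical axis is CPM per kb of exonic sequence on a log scale, for the 10 genes ordered by their median over 6 libraries, with KO points left of WT points. H19 stands apart at 460 to 707, Gnas and Igf2r share the range from 23.2 to 33.3, and Meg3 and Plagl1 are lowest at or below 0.157.

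Per exonic length in GENCODE M21 the 10 genes formed steps. H19 led at 557 to 567 CPM per kb in KO and 460 to 707 CPM per kb in WT. Gnas followed at 27.6 to 29.5 CPM per kb in KO and 26.6 to 29.9 in WT, and Igf2r at 23.3 to 33.3 in KO and 23.2 to 25.9 in WT, so that their ranges overlapped. Cdkn1c, Nnat and Peg3 formed the next step with overlapping ranges. Nnat stood at 3.47 ± 1.03 CPM per kb in KO and 1.85 ± 0.204 in WT. In KO its mean was close to that of Cdkn1c, at 3.43 ± 0.722, and above that of Peg3, at 2.12 ± 0.126. In WT Nnat had the lowest mean of the 3, below Cdkn1c at 3.22 ± 0.584 and Peg3 at 2.55 ± 0.533 CPM per kb (SD, n = 3 each). Mest and Igf2 came next, between 0.57 and 0.99 CPM per kb over all libraries and with overlapping ranges. Meg3 and Plagl1 were at or below 0.157 CPM per kb and overlapped too. The labels do not name the annotation behind the counts, so these lengths are an approximation.

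Gnas encodes the stimulatory G protein alpha subunit, which couples hormone receptors to cyclic AMP, and its locus also makes imprinted alternative transcripts that are counted together here. It had 2788, 2576 and 2490 counts in KO, against 2284, 2443 and 2346 in WT, or 330, 311 and 308 CPM in KO, against 306, 334 and 297 CPM in WT. The groups overlapped, and the 95% bounds of the log2 difference were -0.14 and 0.18. The minus-strand gene Gm20721 shares 1469 exonic bases with Gnas and had 2500, 2549 and 2336 counts in KO, against 2170, 2240 and 2172 in WT. Gnas had 1.06 ± 0.0523 times its counts in KO and 1.07 ± 0.0197 times in WT (SD, n = 3 each). With strand not stated, the counts of Gnas and Gm20721 cannot be told apart over the shared part. Nespas, the antisense RNA of the locus, had at most 3 counts in any library.

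Peg3 encodes a large zinc-finger protein that represses other genes and is expressed in muscle stem cells. It had 222, 241 and 236 counts in KO, against 211, 233 and 331 in WT. Its CPM was 26.3, 29.1 and 29.2 in KO, against 28.3, 31.9 and 42.0 in WT, where WT replicate 3 stood above all others. The log2 difference was -0.27 ± 0.13 (SE), and it did not pass (unadjusted p = 0.0526, the smallest among the 8, adjusted p = 0.989, edgeR). Without WT replicate 3 it was -0.09. That library also had the highest sum of fibroblast markers, 1154 CPM, against 809 to 1031 CPM in the others, and the lowest H19. The part of fibroblasts in the Peg3 value was not tested. Next to Peg3, Usp29 had 0 counts in all 6 libraries and Zim1 had 5, 9 and 13 counts in KO, against 5, 10 and 15 in WT.

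Cdkn1c encodes p57, an inhibitor of cyclin-dependent kinases that holds muscle precursor cells out of the cell cycle. It had 64, 67 and 43 counts in KO, against 59, 41 and 49 in WT. At 7.57, 8.10 and 5.32 CPM in KO, against 7.90, 5.61 and 6.21 CPM in WT, the groups overlapped widely, and the log2 difference had 95% bounds of -0.33 and 0.52. In GENCODE M21 30.7% of the exonic bases of Cdkn1c are shared with the antisense gene Gm44732. With strand not stated, reads of the 2 genes cannot be told apart there. In the same domain on chromosome 7, Cd81, a tetraspanin of the cell surface, stood at 85.9 ± 5.94 CPM in KO and 78.4 ± 7.39 CPM in WT (SD, n = 3 each), with overlapping groups. Osbpl5 had 154, 99 and 92 counts in KO, against 100, 96 and 125 in WT. Kcnq1, Slc22a18 and Tspan32 had at most 10 counts in any library, and Phlda2 and Ascl2 had 0 in all 6, where 0 allows up to 3 counts.

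Mest encodes a hydrolase-fold protein of the endoplasmic reticulum that marks expanding fat tissue. It had 33, 23 and 23 counts in KO, against 28, 20 and 25 in WT. Its CPM of 3.18 ± 0.631 in KO and 3.22 ± 0.510 in WT (SD, n = 3 each) was nearly equal, and the log2 difference had 95% bounds of -0.55 and 0.52. The minus-strand neighbour Copg2 shares 912 exonic bases with Mest, and Copg2 stood at 23.1 ± 0.361 CPM in KO and 21.9 ± 0.798 CPM in WT (SD, n = 3 each), so Mest counts are uncertain. Klf14, which lies further along the same cluster, had 1 count in KO replicate 1 and 0 elsewhere.

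Meg3, a maternally expressed long noncoding RNA of the Dlk1 cluster on chromosome 12, had 17, 17 and 23 counts in KO, against 16, 5 and 21 in WT. WT replicate 2 stood alone at 0.684 CPM, against 2.14 and 2.66 CPM in the other 2 WT libraries and 2.01 to 2.85 CPM in KO. The log2 difference of 0.31 ± 0.38 (SE) turned to -0.07 without WT replicate 2. Dlk1, the paternally expressed partner of Meg3 that curbs fat cell formation, had 1 count in KO replicate 3 and 0 elsewhere. Rtl1 had 6, 11 and 3 counts in KO, against 4, 1 and 4 in WT, and Dio3 had at most 7 counts in any library.

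Plagl1, a zinc-finger factor that in mouse models drives a network of imprinted genes, was the lowest in counts. It had 6, 5 and 8 counts in KO, against 1, 9 and 9 in WT, and was not tested. WT replicate 1 was far below the other 5 libraries. The exact 95% Poisson intervals ran from 0.0253 to 5.57 counts in WT replicate 1 and from 4.12 to 17.1 in WT replicates 2 and 3. They overlap and are wide, so no difference between genotypes is read from these counts.

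**Figure D4:**
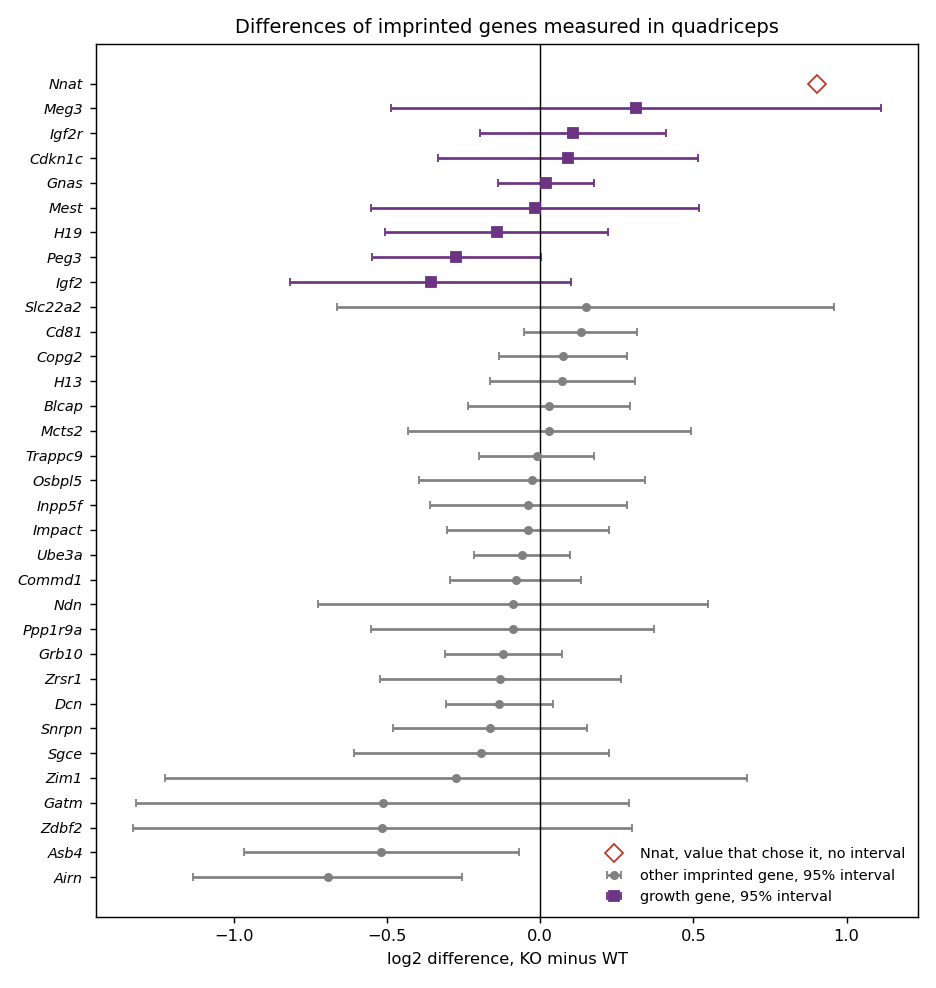
The horizontal axis is the log2 difference of KO minus WT, with 95% intervals from edgeR's quasi-likelihood fit, for Nnat (open diamond, no interval because it was chosen for this value), the 8 other growth genes tested and 24 further imprinted genes tested. Nnat is farthest to the right at 0.90, Airn is farthest to the left at -0.69, and all 8 growth genes have intervals that reach 0.

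The log2 differences were also grouped by parental allele. Nnat, a paternal gene, stood at 0.90, but this value chose it and is not weighed here. Among the other genes read from the paternal allele, the log2 difference was -0.36 for Igf2, -0.27 for Peg3 and -0.02 for Mest. The sign of Mest turned with some libraries left out. Plagl1, also paternal, was not tested. Among genes read from the maternal allele the log2 difference was -0.14 for H19, 0.11 for Igf2r, 0.31 for Meg3 and 0.09 for Cdkn1c. Nnat was in the same fit as all genes, but its own test is not weighed because this contrast chose it. Of the others that were tested none passed, so no direction is called for either group.

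How far the libraries of a group differed depended on the gene. The spread is given as the coefficient of variation (CV, the SD as a percentage of the mean) beside the CV that counting alone would give. H19 varied by 0.888% among KO libraries, about the 0.935% of counting alone, but by 22.5% among WT libraries, against 0.933% from counting. Igf2r varied by 20.9% in KO and 6.05% in WT, against 2.20% and 2.39% from counting in KO and WT. Nnat varied by 29.8% in KO, against 13.8% from counting, and by 11.0% in WT, against 19.7% from counting. Igf2 stayed below the counting value in both genotypes, at 7.01% in KO and 11.0% in WT. Peg3 varied by 5.94% in KO, against 6.55% from counting, and by 20.9% in WT, against 6.22% from counting. Mest varied by 19.9% in KO and 15.8% in WT, against 19.5% and 20.3% from counting in KO and WT.

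**Figure D5:**
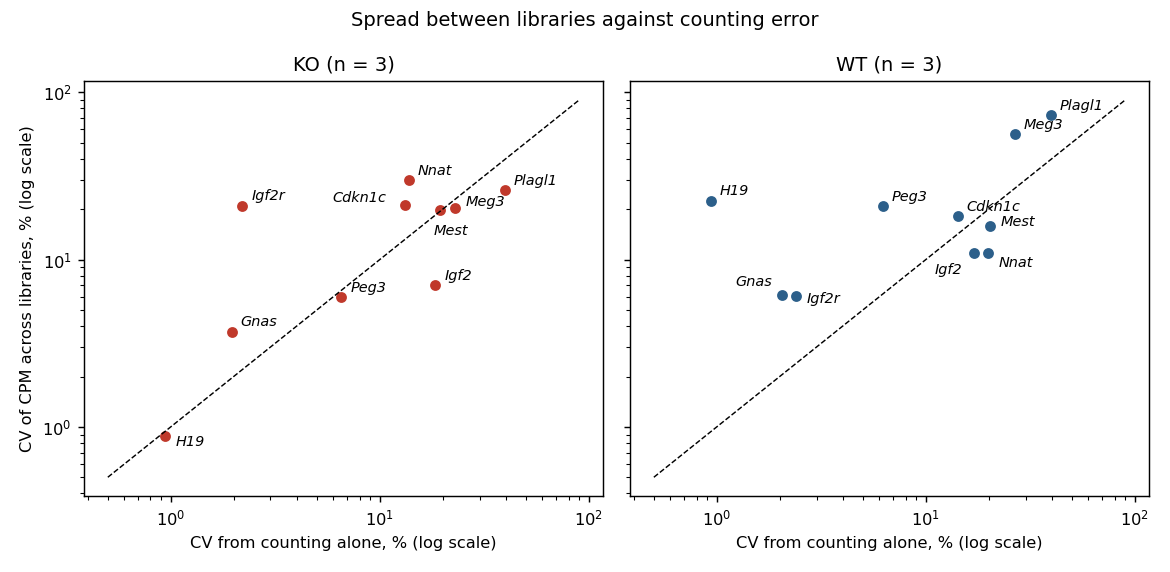
Each point is 1 of the 10 genes, with KO in the left panel and WT in the right. The horizontal axis is the CV expected from counting alone and the vertical axis the CV of CPM across 3 libraries, both in percent on log scales, and the dashed line marks equality. H19 lies on the line in KO (0.888%) and far above it in WT (22.5%).

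Imprinted genes outside the 10 were read from a list of 53, of which 48 were matched by symbol, 24 were tested and 6 had 0 counts in all libraries. None passed in either direction in edgeR's quasi-likelihood test, against 0% of all genes. The KO level was higher for 6 of the 24 and lower for 18, around a median log2 difference of -0.08, against -0.002 over all genes tested. Before adjustment, p was under 0.05 for 0 higher and 2 lower genes of the 24, where 1.99% of all genes were higher and 2.27% lower at that p. Besides Airn the other was Asb4, a maternally expressed ubiquitin ligase adaptor, with 28, 31 and 31 counts in KO, against 34, 43 and 41 in WT. Asb4 stood at 3.63 ± 0.280 CPM in KO and 5.21 ± 0.663 CPM in WT (SD, n = 3 each), and its log2 difference was -0.52 ± 0.21 (SE, adjusted p = 0.989, edgeR). Groups did not overlap for 0 of the 24 above WT and for 2 below, the same 2 genes, where 4.96% of all genes lay above and 5.45% below. Dcn, the collagen-binding proteoglycan decorin, followed at 346 ± 8.51 CPM in KO and 379 ± 42.9 CPM in WT (SD, n = 3 each), with overlapping groups. Dcn is also among the fibroblast markers.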

How the data were processed

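RNA was measured in 3 KO and 3 WT quadriceps libraries made with a TruSeq kit after Trizol extraction, per the labels' protocols. Build mm10, TopHat 1.3.3 and edgeR are named, without roles, per the submitters' processing notes. The authors deposited whole-number counts per Ensembl gene, not normalized, and beside them their own log2 fold change, log2 abundance and p-value, raw and adjusted. The read counter and annotation: not given in the sources used here. Of 37506 rows, 29 repeated an ID and were merged. Coordinates and exonic lengths came from GENCODE M21, whose assembly is that of mm10.

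After filterByExpr, 13848 genes remained. Library sizes were adjusted by TMM, whose factors were 0.968 to 1.037. Genotype was the sole term of a two-sided test in edgeR 4.0.16 (robust quasi-likelihood F-test, Benjamini-Hochberg over all genes, threshold 0.05) in R 4.3.3. The script was tested on simulated data. Alternatives were RLE and no scaling, no filter, at least 1 CPM in 3 libraries, DESeq2 1.42.0, limma voom (3.58.1), a replicate block and leaving out each library. The genes and lists were chosen with earlier results of these data known. Named were the 10 genes, their listed neighbours, Esr1 and the 5 genes nearest to Nnat. Of the 3 genes with the smallest unadjusted p-values in each list, only some are named. Others, such as Cd34, Cfd, Tie1 and Ttn, are left out. Adipoq, Ckm, Myh4, Myh7, Igfbp7, Ube3a, Grb10, Zdbf2 and Gatm were added after their values were seen. So were the overlapping genes Gm23134 and Gm20721 and genes given only by a low count. Every replicate pair differed by more than sampling noise (chi-square per gene of 3.46 or more).
1 marker gene of the nerve list is not reported here by itself.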

Additional observations from a re-analysis of the deposited data

How the results depend on the processing

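The count of genes called over the whole table was 0 and became 19 with no filter beyond 1 read, 3 with DESeq2 (Actn3, Pvalb and Gm23624) and 1 with limma voom; leaving out each library gave 0 to 3, the 3 coming without WT replicate 1. Of the growth genes without Nnat, the further imprinted genes and the IGF axis genes, none was called under any of the 13 alternatives. Nnat is left out of this count because this contrast chose it. The log2 difference of Nnat ran from 0.86 to 0.91 over the 7 other settings and from 0.63 to 1.04 with each library left out. Leaving out a library turned the sign of Igf2r (range -0.08 to 0.20), Meg3 (-0.07 to 0.69), Cdkn1c (-0.02 to 0.25), Mest (-0.19 to 0.10) and Gnas (-0.016 to 0.068). The values were -0.0792 for Igf2r without KO replicate 1 and -0.0669 for Meg3 without WT replicate 2. For Cdkn1c they were -0.0225 without KO replicate 2 and -0.00876 without WT replicate 2, and for Gnas -0.0125 without KO replicate 1 and -0.0163 without WT replicate 3. For Mest they were 0.0732 without KO replicate 2, 0.0558 without KO replicate 3 and 0.105 without WT replicate 1. The cause was not tested. H19, Igf2, Peg3 and Airn stayed lower in KO under all 13, with Airn between -0.83 and -0.54 when a library was left out. Esr1 passed only with no filter beyond 1 read (adjusted p = 0.000142, edgeR). The log2 ratio of H19 to Igf2 differed by 0.12 to 0.34 with each library left out. Same-numbered libraries correlated at -0.0146, 0.159 and 0.0377 in their deviations from the group means. Libraries of unlike number correlated at -0.17 to 0.14. With 3 libraries per group these values show no clear pairing and cannot exclude it. With the replicate number as a block 0 genes were called, the Nnat difference was 0.88 and the H19 to Igf2 difference 0.24. Depth limits Plagl1, Meg3, Mest, Igf2, Cdkn1c and Nnat, each with under 100 counts in every library.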

Other observations

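Of 4 further imprinted genes outside the 10, Ube3a and Grb10 were abundant in these libraries, while Zdbf2 and Gatm were low. Ube3a, a ubiquitin ligase that is imprinted in neurons, stood at 136 ± 5.63 CPM in KO and 142 ± 6.93 CPM in WT, and the 95% interval of its log2 difference ran from -0.22 to 0.10. Grb10, an adaptor that dampens insulin and IGF1 receptor signalling, stood at 87.0 ± 8.66 CPM in KO and 94.5 ± 8.21 CPM in WT (SD, n = 3 each), with a 95% interval from -0.31 to 0.07. Zdbf2 had 11, 8 and 23 counts in KO, against 24, 17 and 14 in WT, and Gatm, which makes the precursor of creatine, had 22, 10 and 32 counts in KO, against 19, 26 and 39 in WT. Both overlapped between groups. None of the 4 passed in edgeR's quasi-likelihood test.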
